A study of Homo sapiens with 4 samples.

Results

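The ZNF genes of human chromosome 19 were examined for peaks of γH2AX, histone H2A.X phosphorylated in the chromatin around DNA double-strand breaks. The members were all protein-coding genes of the RefSeq gene table (GRCh38.p14) that lie on chromosome 19 and whose symbol is ZNF followed by a number. There were 250, out of 19970 protein-coding genes on chromosomes 1 to 22 and X, and they made up 17.2% of the 1451 protein-coding genes of chromosome 19. The annotation gave gene extents without exons, and a strand was known for 219 members, 117 on the plus and 102 on the minus strand. Start and 3′ end could be told apart only in these. Splitting the members wherever neighbours lay more than 500 kb apart gave 11 clusters of at least 3 genes, holding 239 members, and left 11 scattered genes. Median gene length was 23.3 kb (range 2.47 to 488 kb), against 12.7 kb for the other genes of the chromosome.

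γH2AX was mapped by chromatin immunoprecipitation and sequencing in SK-UT-1, a cell line from a uterine leiomyosarcoma, a malignant smooth muscle tumour. Cells received 0.1% DMSO (the vehicle), 1 µM OTS186935 (which inhibits the methyltransferase SUV39H2), 0.5 µM doxorubicin (which poisons topoisomerase II), or both drugs at those doses, hereafter the combination. How long cells were treated is not given in the sources used here. There was 1 library for each condition, and the 3 treated libraries share the DMSO library as their control, so no difference between conditions was tested. Intervals in parentheses are exact 95% binomial intervals for shares and exact Poisson intervals for densities, and they cover counting error only. Peak lists measure no expression, so the identity of the cells was not checked.

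Most ZNF genes of chromosome 19 encode KRAB zinc finger proteins, DNA-binding repressors that multiplied by tandem duplication and now stand in clusters of related copies. Their KRAB domain binds TRIM28 (KAP1), which brings in SETDB1, a methyltransferase that trimethylates lysine 9 of histone H3 (H3K9), and HP1 proteins bind the methylated histone. Many of these repressors silence transposable elements. The genes themselves carry H3K9 trimethylation, mostly over the 3′ exons that encode the finger repeats, and ZNF274, itself encoded in the cluster at the end of the long arm, binds there. SUV39H2, the target of OTS186935, also methylates H3K9.

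Peaks at the members rested on few fragments, as in the lists as a whole. After rows that overlapped or touched were merged, they held 72858, 59710, 47495 and 29213 peaks in the order DMSO, OTS186935, doxorubicin and combination, of which 280, 252, 182 and 88 touched a member's body. The fragments piled up at the summit were solved from the deposited fold enrichment and p. Their median per library was 6 to 7 at member peaks and 7 to 8 over all peaks. At all other chromosome 19 peaks, inside or outside genes, it was 9 to 12. The local background was at its genome-wide floor (0.389 to 0.454 fragments) for 32% of member rows with DMSO, 29.4% with OTS186935, 26.3% under doxorubicin and 6.9% with the combination. The same held for 2.81% to 8.155% of the chromosome 19 rows outside member bodies. Median fold enrichment, a peak's height over its local background, was 4.06 to 4.45 at member peaks. Fold enrichment ranks peaks within a list and is given below for each library side by side. Related members share long near-identical stretches, so the placement of reads among them is uncertain, and how repeated reads were handled is not given in the sources used here.

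Promoter sequences, from 250 bases before to 50 bases after a RefSeq start (GRCh38.p14), matched 219 members, 182 of them at the very start used here. The 4 shown were picked after their values were seen, 3 from members with a peak at the start in every library (ZNF177, ZNF132 and ZNF257) and 1, ZNF91, with none. Each reads 5′ to 3′ on the gene's strand, and capitals mark every match to CCGGAAG or CCAATCA, searched on both strands. The first holds the core letters of ETS factor sites, and the second a CCAAT box. The pair of motifs cannot overlap each other, and they were chosen after the promoters had been looked at. The ZNF177 promoter is chr19:9362763-9363062 (plus strand), that of ZNF132 chr19:58440104-58440403 (minus), that of ZNF257 chr19:22052234-22052533 (plus) and that of ZNF91 chr19:23395422-23395721 (minus).
ZNF177: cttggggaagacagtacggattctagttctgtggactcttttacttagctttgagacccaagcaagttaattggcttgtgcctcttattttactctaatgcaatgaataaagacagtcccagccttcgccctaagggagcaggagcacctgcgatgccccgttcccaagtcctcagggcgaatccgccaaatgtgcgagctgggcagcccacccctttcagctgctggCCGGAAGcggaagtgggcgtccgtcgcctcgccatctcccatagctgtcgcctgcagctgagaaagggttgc
ZNF132: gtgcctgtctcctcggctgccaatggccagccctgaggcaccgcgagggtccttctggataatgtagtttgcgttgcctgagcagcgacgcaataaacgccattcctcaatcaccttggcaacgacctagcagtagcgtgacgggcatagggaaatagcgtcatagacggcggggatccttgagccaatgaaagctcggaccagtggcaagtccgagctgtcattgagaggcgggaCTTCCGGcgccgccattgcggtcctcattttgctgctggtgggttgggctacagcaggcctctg
ZNF257: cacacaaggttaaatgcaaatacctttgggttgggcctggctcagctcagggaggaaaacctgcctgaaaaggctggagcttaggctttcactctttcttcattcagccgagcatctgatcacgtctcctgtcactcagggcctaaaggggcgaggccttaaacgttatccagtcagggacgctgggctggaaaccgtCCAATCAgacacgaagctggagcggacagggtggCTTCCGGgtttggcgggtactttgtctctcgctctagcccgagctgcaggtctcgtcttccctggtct
ZNF91: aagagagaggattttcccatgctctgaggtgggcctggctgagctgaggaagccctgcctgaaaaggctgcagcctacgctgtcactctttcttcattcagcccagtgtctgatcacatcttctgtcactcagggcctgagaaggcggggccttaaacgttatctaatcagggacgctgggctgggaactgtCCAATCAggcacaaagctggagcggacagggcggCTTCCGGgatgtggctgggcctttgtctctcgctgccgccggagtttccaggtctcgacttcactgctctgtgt

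CCGGAAG was in 99 of 219 member promoters (45.2%, 38.5 to 52.05) and in 14.1% of all promoters. CCAATCA was in 63 (28.8%, 22.9 to 35.25) and in 8.65% of all. The sequences of ZNF257 and ZNF91 show how alike the members of a cluster are: CCAATCA stands 27 bases upstream of CTTCCGG in both. That arrangement, the same letters with 27 bases between them on the gene's strand, was found in 19 members and in 10 of the 15593 other promoters (0.0641%). All 19 lay in the cluster from ZNF101 to ZNF254, where they were 65.5% of the 29 members with a promoter (45.7 to 82.1). They include ZNF43, ZNF85, ZNF91, ZNF100, ZNF208, ZNF257, ZNF431 and ZNF737. A start peak was present in 3 of these 19 with DMSO (ZNF257, ZNF492 and ZNF681) and in 1 of them, ZNF257, with each treatment. A match to these letters describes the sequence and not a bound site, and the motifs were not used to choose any member.

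Members with and without a DMSO start peak held CCGGAAG in like shares, 47.1% of 51 (32.9 to 61.5) and 44.6% of 168 (37 to 52.5). CCAATCA was in 15.7% (7.02 to 28.6) and 32.7% (25.7 to 40.4), intervals that overlap a little. The cluster with the fixed pair of motifs is also the one with the lowest peak density among the larger clusters, and the part of either in this difference was not tested. Median GC content of the promoters was 59.3% and 60.3%. With doxorubicin it was 61.5% in the 14 members with a start peak and 60% in the rest, and with the combination 61% and 60%, so the order was not the same in every library. Among all genes it was 65.7% in those with a DMSO start peak and 61% in those without.

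Peaks at the start of members were fewer under doxorubicin, alone and in the combination. A start peak, one touching the window of 1 kb either side of the 5′ end, was found at 51 of 219 members with DMSO (23.3%, 17.9 to 29.5), 34 with OTS186935 (15.5%, 11 to 21), 14 under doxorubicin (6.39%, 3.54 to 10.5) and 15 with the combination (6.85%, 3.88 to 11). The same windows held a peak in 30.2%, 20.9%, 15.4% and 10.8% of all 15812 genes with a known strand. The members' share was below the genome's in each library, by more than counting error with DMSO and with doxorubicin only. With doxorubicin their interval also lay below that of the other chromosome 19 genes outside the clusters (13.2%, 11.1 to 15.6). With the combination those other genes stood at 6.72% (5.17 to 8.56), next to the members. ZNF genes of other chromosomes, 218 with a strand, had 27.1%, 17%, 13.3% and 11.9%. Their doxorubicin interval, 9.09 to 18.5, overlapped that of the members.

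**Figure D1:**
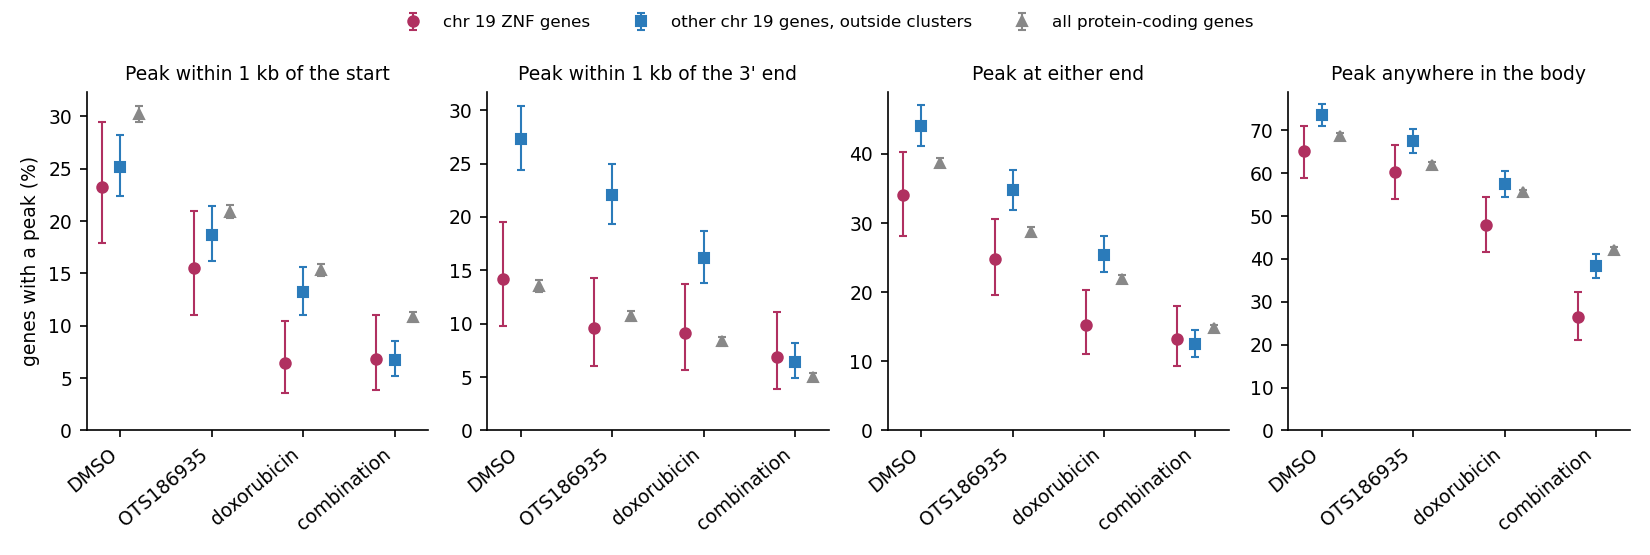
Share of genes (%) with a γH2AX peak within 1 kb of the start, within 1 kb of the 3′ end, at either end, or anywhere in the body, for the 4 libraries; circles are the chromosome 19 ZNF genes, squares the other chromosome 19 genes outside their clusters and triangles all protein-coding genes, with exact 95% binomial intervals of 1 library each. The circles fall from 23.3% to 6.85% at the start, and lie well under the squares at the 3′ end with DMSO, 14.2% against 27.3%.

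Of the 51 members with a DMSO start peak, 28 had one with OTS186935 (54.9%, 40.3 to 68.9), 13 under doxorubicin (25.5%, 14.3 to 39.6) and 14 with the combination (27.5%, 15.9 to 41.7). The shares over all genes with a DMSO start peak were 51.2%, 39.4% and 29.3%. The doxorubicin interval of the members reached just past the genome's 39.4%, so that difference is within counting error. Of the 168 members without a DMSO start peak, 6 had one with OTS186935 (3.57%, 1.32 to 7.61), ZNF491 alone with doxorubicin (0.595%, 0.0151 to 3.27) and ZNF528 alone with the combination (0.595%). Among all genes without one, the shares were 7.73%, 4.96% and 2.82%, the first 2 of them above the members' intervals. In lists of equal length, the strongest 29213 peaks of each library by p, start peaks were at 10.5%, 9.13%, 4.11% and 6.85% of members and at 11.9%, 10.9%, 10.45% and 10.8% of all genes. The doxorubicin library therefore had the fewest member starts also when the number of peaks was the same, 9 against 15 with the combination, a gap within counting error.

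The summits gathered just inside the gene. With DMSO, 27 summits lay in the 0.5 kb downstream of the 219 starts, or 12.3 per 100 genes, and 7 in the 0.5 kb after that. In that first 0.5 kb there were 9.13 per 100 members with OTS186935, 4.11 under doxorubicin and 4.11 with the combination. The other chromosome 19 genes with a strand, 966 in number, had 11.7, 7.66, 6.11 and 3 per 100. The step at the start was therefore of like height in both sets with DMSO.

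**Figure D2:**
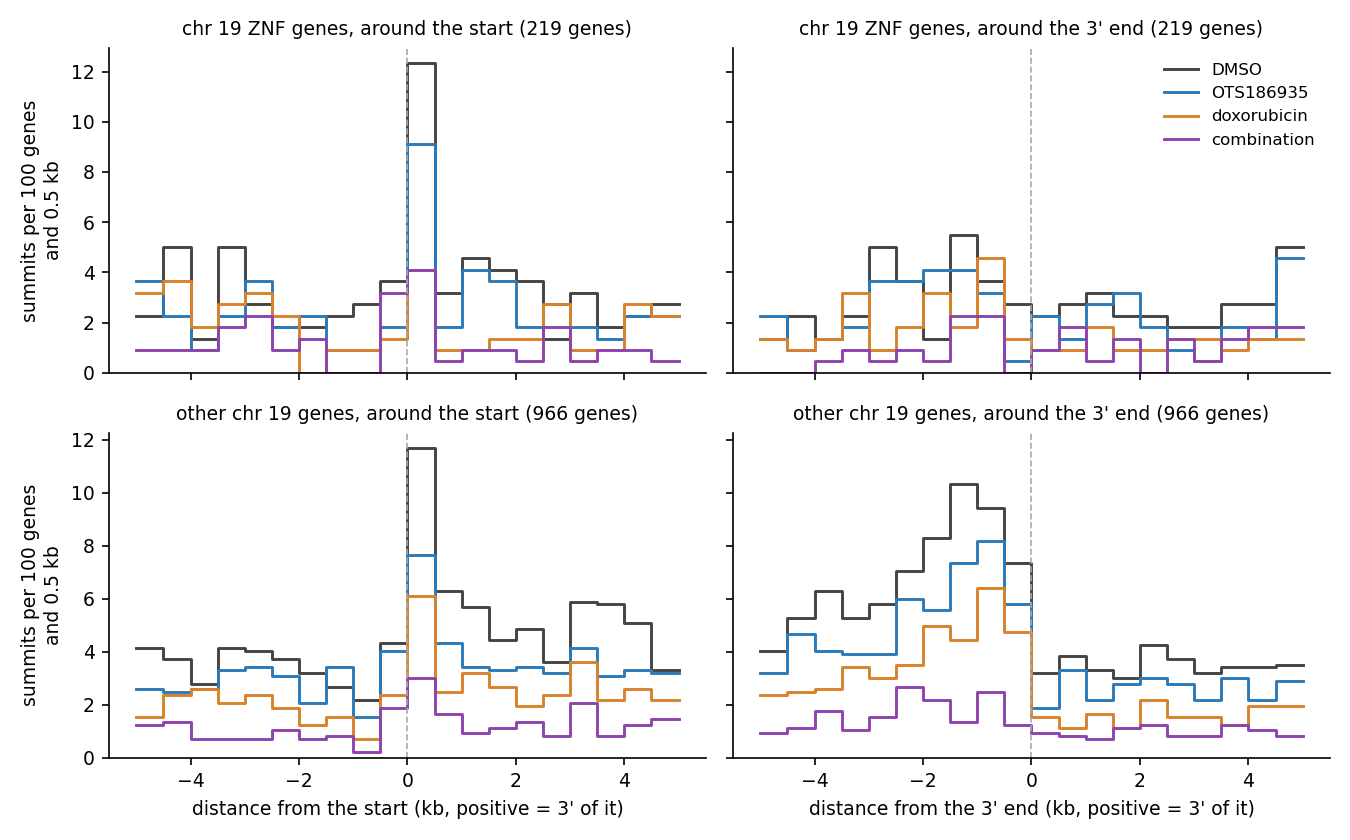
Peak summits per 100 genes and 0.5 kb (y axis) against distance from the start or the 3′ end in kb (x axis, positive is 3′ of that point), for the 219 chromosome 19 ZNF genes with a known strand (top) and 966 other genes of the chromosome (bottom), 1 line per library. Both sets rise to about 12 per 100 genes just after the start with DMSO, while the rise before the 3′ end, to 10.4 per 100 in the other genes, reaches 5.48 in the ZNF genes.

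At 9 members the start had a peak in all 4 libraries (4.11%, against 5.55% of all genes). These were ZNF177, ZNF257, ZNF540, ZNF667, ZNF835, ZNF418, ZNF135, ZNF544 and ZNF132. ZNF177, whose promoter is known to be methylated in several tumours, had the strongest with DMSO. Its fold enrichment was 8.85 with DMSO, 6.19 with OTS186935, 5.66 under doxorubicin and 5.87 with the combination, on 14, 8, 8 and 8 fragments, and the summits lay 137, 186 and 41 bases downstream and 100 bases upstream of the start. The DMSO value stood above the 3 treated ones, which were close together. ZNF132, another gene silenced by promoter methylation in tumours, had folds of 4.86, 4.77, 4.95 and 4.93 in the same order, and so hardly varied. Its peak reached into the body of the neighbouring ZNF324B in every library, and the gene that it belongs to cannot be told from the intervals. ZNF257 had folds of 3.47, 4.09, 4.66 and 4.09, resting on 5 to 7 fragments.

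Several strong start peaks were absent from the doxorubicin list. The start of ZNF772 had folds of 6.4 with DMSO, 7.74 with OTS186935 and 8.65 with the combination, on 9, 10 and 12 fragments, with summits 244, 293 and 284 bases into the gene, and no peak with doxorubicin alone. ZNF229 was present in the same libraries, at 6.02, 7.32 and 5.3, with summits 65, 85 and 37 bases into the gene. ZNF418, which had a peak in every library, was likewise lowest with doxorubicin, at 3.39, against 6.8, 7.36 and 6.2 with DMSO, OTS186935 and the combination. At these 3 members the peak was thus weakest or missing with doxorubicin and present with the combination. All 3 were picked as being among the 5 highest folds at gene ends with the combination, so their presence there follows from the choice. ZNF420, ZNF578 and ZNF134 also lacked a start peak in the doxorubicin list only. With ZNF229 and ZNF772 these are 5 of 219 members (2.28%, against 1.5% of all genes). ZNF541, ZNF154 and ZNF671 lacked one in the combination list only (1.37%, against 3.66% of all genes). ZNF154, a methylation marker of many cancers, had 6.34, 6.73 and 4.81 with DMSO, OTS186935 and doxorubicin.

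Other starts had a peak with DMSO and OTS186935 and not in either library with doxorubicin. There were 11 (5.02% of members, against 4.77% of all genes), among them ZNF567 with folds of 7.66 and 5.36, ZNF550 with 7.52 and 6.19, and ZNF799 with 7.19 and 9.71, the last the highest of any member peak with OTS186935. In these 3 genes the summit lay 1086 to 1478 bases into the gene, so the interval touched the window while its summit was outside it. A start peak with DMSO only was found at 22 members (10.05%, against 11% of all genes), so both shares were near the background. They include ZNF181 (6.27-fold, summit 1238 bases upstream of the start), ZNF626 (6.12) and ZNF8 (6.02).

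At the 3′ end the members were near the genome's share, and below that of their chromosome in the first 3 libraries. A peak within 1 kb of the 3′ end was found at 31 of 219 members with DMSO (14.2%, 9.82 to 19.5), 21 with OTS186935 (9.59%), 20 under doxorubicin (9.13%) and 15 with the combination (6.85%), where all genes had 13.5%, 10.7%, 8.33% and 5.02%. The other chromosome 19 genes outside the clusters had 27.3% with DMSO (24.4 to 30.4), 22.1%, 16.1% and 6.38%. Other genes inside the clusters, 73 with a strand, stood nearer to the latter with DMSO, at 28.8% (18.8 to 40.55), and at 16.4%, 11% and 8.22% in the treated libraries. Of the 31 DMSO 3′ peaks, 16, 13 and 11 members had one in the treated libraries (51.6%, 41.9% and 35.5%), against 51.4%, 40.9% and 26.9% of all genes. With doxorubicin, 3′ windows with a peak outnumbered start windows with one in the members, 20 to 14.

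Counting either end, 85 of 250 members (34%) had a peak with DMSO, 62 (24.8%) with OTS186935, 38 (15.2%) under doxorubicin and 33 (13.2%) with the combination, against 38.7%, 28.7%, 21.9% and 14.8% of all genes. Of those 85, 51 (60%), 29 (34.1%) and 28 (32.9%) had one in the treated libraries, against 56.5%, 44.3% and 31.4% of all genes with one. An end with a peak in all 4 libraries was found at 17 members (6.8%, against 7.59% of all genes). Few peaks at gene ends also touched an end window of another gene. With DMSO, 3 of 91 were shared in this way by 2 members and 5 with a gene of another name. Overlap with the bodies of neighbouring genes was not counted.

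**Figure D3:**
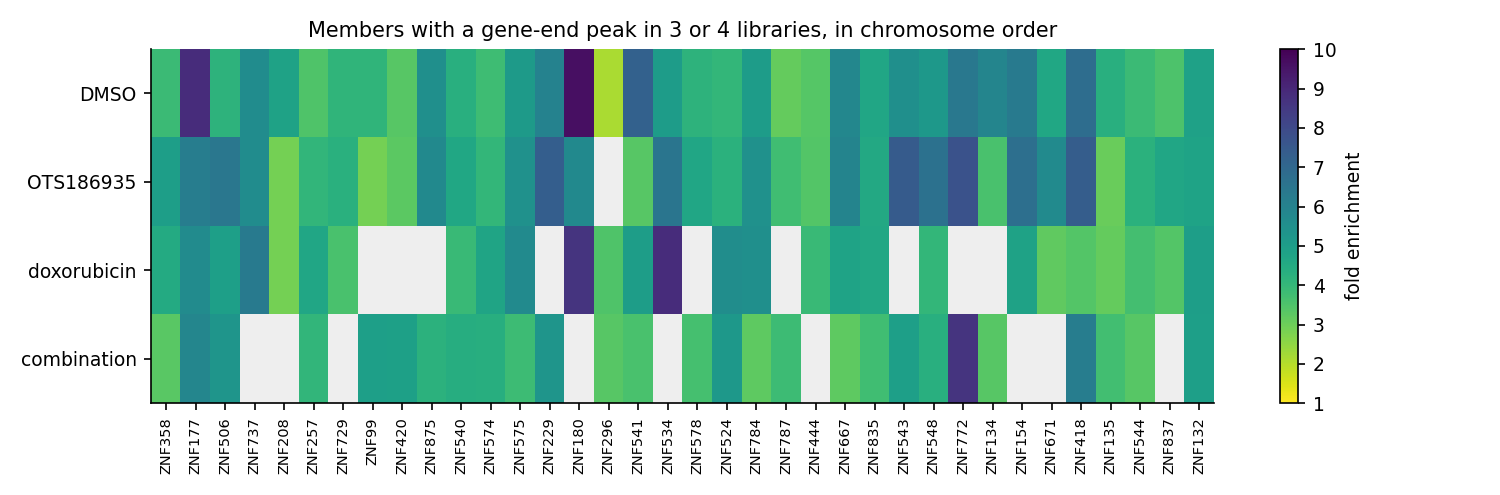
Fold enrichment (colour) of the strongest gene-end peak in each library (rows) for the 36 chromosome 19 ZNF genes with a peak at either end in at least 3 libraries (columns, in chromosome order); grey marks no peak. Dark cells stand at ZNF177 and ZNF180 with DMSO, at ZNF180 and ZNF534 with doxorubicin and at ZNF772 with the combination, and the doxorubicin row is grey at ZNF229 and ZNF772.

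The strongest 3′ peaks lay on both sides of the gene's end. At ZNF180, the highest gene-end peak of the members with DMSO, the folds were 9.63 with DMSO, 5.73 with OTS186935 and 8.64 with doxorubicin, on 13, 7 and 11 fragments. The combination had none there. Its summits lay 1035, 1030 and 1006 bases past the 3′ end, nearly at one place. ZNF534, a repressor of endogenous retroviruses in embryonic stem cells, carried its peaks at different ends in different libraries. The start had 5.01 with DMSO and 6.52 with OTS186935, while the 3′ window had 3.75 with OTS186935 and 8.84 with doxorubicin, the highest fold of any member in that library, its summit 811 bases inside the gene. ZNF548 had a peak 699 to 941 bases past its 3′ end in every library, with folds of 5.21, 6.63, 4.03 and 4.32. The other members with a 3′ peak in all 4 lists were ZNF575 (5.09, 5.46, 5.69 and 3.83), ZNF784 (5.02, 5.46, 5.52 and 3.24), ZNF358 (3.86, 4.97, 4.5 and 3.31) and ZNF574 (3.8, 4.05, 4.75 and 4.34). The first 3 were lowest with the combination and ZNF574 with DMSO. These 5 members are 2.28%, against 1.96% of all genes.

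Along the gene, cut into 5 equal stretches from start to 3′ end, member summits were most frequent in the first stretch with DMSO. That stretch held 30.8% of 276 summits (25.4 to 36.6), 27.5% of 251 with OTS186935, 22.7% of 185 with doxorubicin (16.9 to 29.4) and 27.7% of 83 with the combination. An even spread would put 20% in each. The last stretch held 20.7%, 18.7%, 22.2% and 14.5%, and each interval contained 20%. The last stretch of the other chromosome 19 genes held 24.9% (23.1 to 26.8), 25.8%, 25.2% and 21%. On the 3′ side, where the finger exons of these genes usually lie, the member summits were therefore not denser than an even spread in any of the 4 lists, within counting error. Those of the other genes of the chromosome were in 3 of the lists. The member intervals with DMSO (16 to 25.9) and doxorubicin (16.4 to 28.8) nevertheless contained the values of those genes. ZNF genes of other chromosomes had 26.2% (22.2 to 30.6), 25.9%, 26% and 34.7% (27.6 to 42.4) in the last stretch, above an even spread in each list.

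**Figure D4:**
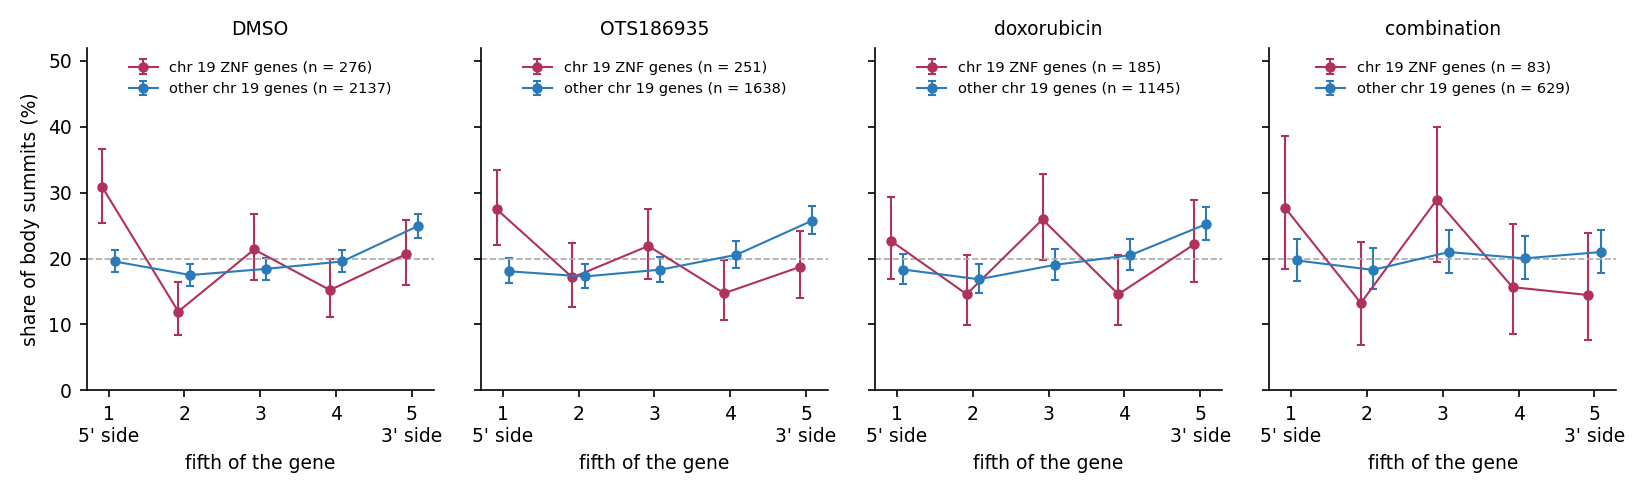
Share (%) of body summits in each of 5 equal stretches of the gene from the 5′ side (1) to the 3′ side (5) in the 4 libraries, for the chromosome 19 ZNF genes and the other genes of the chromosome, with exact 95% binomial intervals and the number of summits in the legend; the dashed line is an even spread of 20%. The ZNF genes are above the line in the first stretch with DMSO (30.8%), and the other genes in the last (24.9%).

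Fixed stretches gave a like picture with DMSO. In the 193 members of at least 10 kb, the first 5 kb held 68.3 summits per Mb with DMSO (52.7 to 87), 49.4 with OTS186935, 25.2 under doxorubicin (16.1 to 37.5) and 15.8 with the combination. The last 5 kb held 41.9 (29.9 to 57), 36.6, 28.3 and 7.33. In 587 other chromosome 19 genes of that length, the first 5 kb held 106, 70.5, 50.9 and 28.9 per Mb, and the last 5 kb 141, 111, 75.2 and 35.2. The 5′ stretch of the members was thus denser than the 3′ stretch with DMSO, though their intervals overlap a little. With doxorubicin the order was the other way, 25.2 against 28.3. In all protein-coding genes of that length the 5′ stretch was also the denser with DMSO (80.8 and 59.1 per Mb), while in the other genes of chromosome 19 the 3′ stretch was.

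Some single sites past the middle of a gene were called in every list, not all of them in the last of the 5 equal stretches. ZNF274 had 2 regions with a peak in all 4 libraries and none in its end windows. The first, at a fraction of 0.69 of the way along the gene, had folds of 7.81 with DMSO, 8.02 with OTS186935, 5.59 under doxorubicin and 3.56 with the combination, on 24, 20, 14 and 8 fragments. The second, at 0.88, had 6.74, 5.8, 3.47 and 4.06. At both sites the values with doxorubicin and with the combination were below those with DMSO and OTS186935. ZNF555 had a region at 0.923 to 0.93 of its length with 6.92, 6.75, 7.02 and 4.57, lowest with the combination. ZNF526, one of the scattered genes, had its region between 0.574 and 0.737 with 4.53, 5.32 and 3.91 in the first 3 libraries, and a pair of peaks of 2.98 and 4.14 with the combination.

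Over the whole body, the members carried far fewer peaks than their chromosome. A peak lay in the body of 65.2% of members with DMSO, 60.4% with OTS186935, 48% under doxorubicin and 26.4% with the combination, against 68.7%, 61.9%, 55.5% and 42.1% of all genes. Density was 39.4 peaks per Mb of member body with DMSO (34.9 to 44.3), 35.5 with OTS186935 (31.2 to 40.1), 25.6 under doxorubicin (22 to 29.6) and 12.4 with the combination (9.93 to 15.3). It was 95.5, 76, 53.6 and 30.04 in the other chromosome 19 genes outside the clusters. The members stood close to ZNF genes of other chromosomes (36.7, 32.5, 26 and 15.1), with overlapping intervals in each library. All protein-coding genes had 33.6, 27, 21.2 and 12.8. The members were above these by more than counting error in the first 3 libraries, and level with them with the combination. Members in clusters alone had 36.5 with DMSO (31.95 to 41.5), 33.2 with OTS186935 (28.9 to 38) and 23.8 with doxorubicin (20.2 to 27.9). Of these intervals only that of OTS186935 lay above the value of all genes. Without ZNF536 the DMSO interval of the members, 33.4 to 42.9, also contained that value. As a share of DMSO, the treated densities were 90%, 65% and 31.4% in members. They were 79.7%, 56.1% and 31.5% in the other chromosome 19 genes outside the clusters, and 80.35%, 63.3% and 38.2% in all protein-coding genes. ZNF genes of other chromosomes had 88.5%, 71% and 41.25%, and other genes inside the clusters 75.5%, 59% and 43.2%. With the combination, members and the genes outside the clusters thus had smaller shares than the other sets, a difference that was not tested.

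Among genes of like length the densities were also apart. Members of 10 to 50 kb had 37.5, 31.7, 22.1 and 9.48 peaks per Mb, and other chromosome 19 genes of that length 96.5, 76.7, 53 and 30.2. A body peak in all 4 libraries was present in 19 of 196 such members (9.69%, 5.94 to 14.7) and in 236 of 628 other genes (37.6%, 33.8 to 41.5). Without a limit on length, it was present in 15.6% of the 250 members (11.3 to 20.7) and in 32.4% of all protein-coding genes. Lists of equal length gave the members 16.5, 18.6, 14.9 and 12.4 per Mb, and the other genes of the chromosome 40.8, 35.9, 32.9 and 30.1. Along with this, pileup was lower at member peaks than at the other peaks of the chromosome, and more of them stood on the floor background, as given above. The part of these, or of gene length, in the density was not tested.

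The clusters were not alike. The highest densities with DMSO were in the cluster from ZNF264 to ZNF446 (43 members), with 82.3 peaks per Mb of member body (62.2 to 107), and in that from ZNF628 to ZNF835 (17 members), with 79.9 (50.1 to 121). The former lies 0.084 Mb from the last gene or listed peak of the chromosome. The lowest among clusters of more than 10 members was in that from ZNF101 to ZNF254 (37 members), with 22.4 (15.5 to 31.3), followed by ZNF565 to ZNF573 (26 members) with 27.8 (18.6 to 39.99) and ZNF175 to ZNF331 (41 members) with 28.2 (19.6 to 39.2). The intervals of the 2 densest do not overlap those of the 3 sparsest. Between the members' bodies, DMSO density was also high in the cluster from ZNF264 to ZNF446 (87.4 per Mb) and lowest in that from ZNF101 to ZNF254 (31.9). The order did not carry over elsewhere: ZNF628 to ZNF835 had 53.3 between its members, next to 52.1 in ZNF175 to ZNF331 and below 66.4 in ZNF575 to ZNF180.

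**Figure D5:**
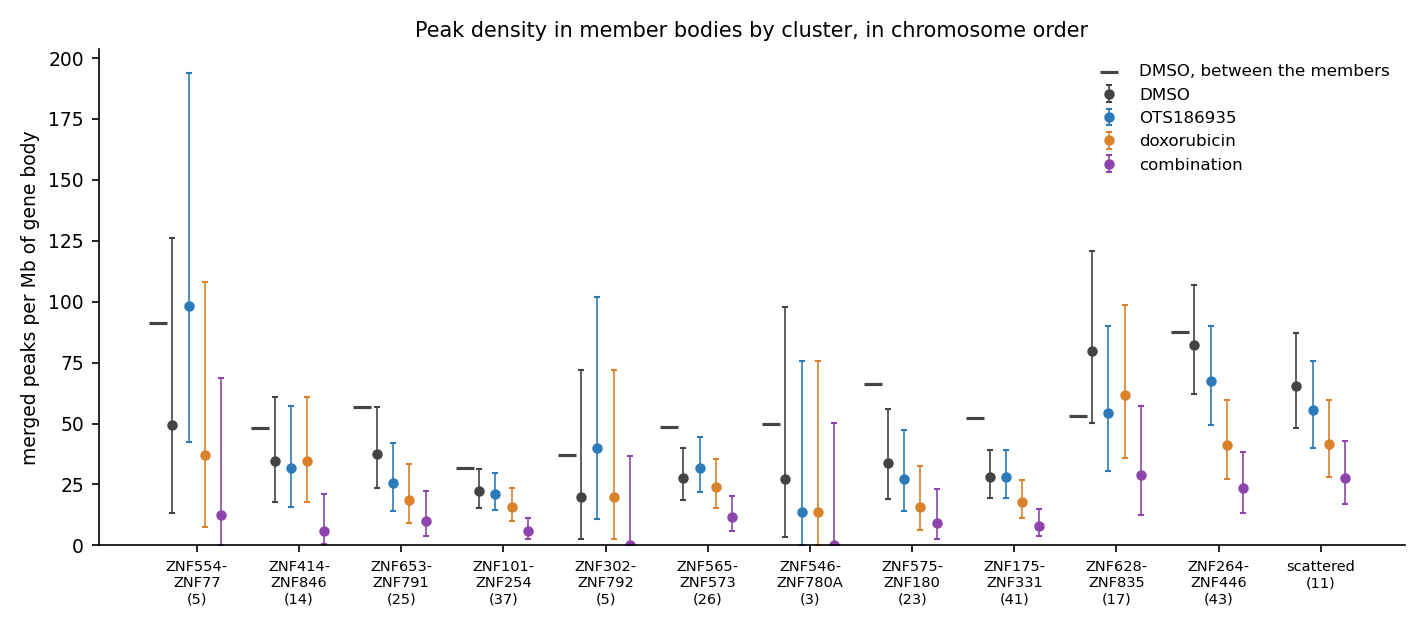
Merged γH2AX peaks per Mb of member body (y axis) in the 11 clusters of chromosome 19 ZNF genes in chromosome order and in the 11 scattered members, with the number of members in parentheses; points are the 4 libraries with exact 95% Poisson intervals and dashes the DMSO density between the members of the cluster. The clusters ZNF628 to ZNF835 and ZNF264 to ZNF446 stand highest among the larger ones with DMSO, at 79.9 and 82.3.

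The combination had the lowest density in each of the 11 clusters, from 29.05 per Mb in ZNF628 to ZNF835 down to no peak in the small clusters ZNF302 to ZNF792 and ZNF546 to ZNF780A. Member bodies of those clusters span 0.1 and 0.0737 Mb, and a count of 0 there allows up to 36.8 and 50.02 per Mb. In the cluster from ZNF264 to ZNF446 the densities were 82.3, 67.6, 41.2 and 23.5, and in that from ZNF175 to ZNF331 28.2, 28.2, 17.7 and 8.05. With OTS186935, density was at 113.8% of DMSO in ZNF565 to ZNF573 (33 peaks against 29) and at 68.2% in ZNF653 to ZNF791 (15 against 22), and these counts are too small to tell the clusters apart. With doxorubicin, ZNF414 to ZNF846 had 12 peaks, as with DMSO.

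Start peaks with DMSO were frequent in the 2 clusters nearest the end of the long arm. In ZNF264 to ZNF446, the 40 members with a known strand had 17 start peaks with DMSO (42.5%), 16 with OTS186935 (40%), 6 under doxorubicin (15%) and 6 with the combination (15%). The other 179 members had 34 (19%), 18 (10.1%), 8 (4.47%) and 9 (5.03%). Among those, the 15 of ZNF628 to ZNF835 had 6 (40%), 2 (13.3%), 3 (20%) and 2 (13.3%). Of these 6 with DMSO, ZNF470-DT and ZNF470 shared the same peak of 4 fragments. Over all genes the shares were 30.2%, 20.9%, 15.4% and 10.8%. With DMSO both clusters stood above that share, each on too few genes to place it firmly there. With OTS186935 the count was near that of DMSO in ZNF264 to ZNF446 and lower in the rest, a difference that was not tested. The cluster from ZNF264 to ZNF446 holds ZNF418, ZNF772, ZNF154, ZNF671, ZNF135, ZNF544, ZNF132 and ZNF550. Without this cluster, density with DMSO was 34.9 per Mb and the share with a start peak with OTS186935 was 10.1%. In the cluster from ZNF653 to ZNF791, 2 of 24 members had a start peak with DMSO (8.33%).

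Within each cluster, the member of at least 5 kb with most peaks per Mb with DMSO was ZNF835 (307) in ZNF628 to ZNF835, ZNF324 (239) in ZNF264 to ZNF446, ZNF575 (190) in ZNF575 to ZNF180 and ZNF653 (134) in ZNF653 to ZNF791. These were short genes or held few peaks: ZNF835 had 3, 4, 3 and 2 body peaks over 9.78 kb, and ZNF575 had 1 in every list. ZNF93 led the sparse cluster from ZNF101 to ZNF254, with 3 peaks with DMSO, none with OTS186935, 1 with doxorubicin and none with the combination.

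ZNF536, the longest member at 488 kb and a scattered gene known for its part in neuronal differentiation, held 29, 25, 20 and 11 body peaks, the most of any member in each list. Its density was 59.4 peaks per Mb with DMSO, 51.2 with OTS186935, 41 under doxorubicin and 22.5 with the combination. It had 4 regions with a peak in all 4 libraries, at 0.18, 0.45, 0.5 and 0.76 of its length. The region at 0.76 had folds of 7.11, 4.93, 4.2 and 4.89. Elsewhere a body usually held none or 1 peak: with DMSO 87 members had none, 102 had 1 and 61 had 2 or more. Spearman's rho of gene length and number of body peaks across members was 0.24, 0.27, 0.25 and 0.1 in the 4 libraries, a description over 250 genes that share each library.

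Members known as repressors of transposable elements, and others named for their known roles, are given here by their values. ZNF91, which silences SVA and L1 elements, had 1, 3, 2 and 1 peaks in 90.5 kb, with a highest fold of 5.52, 7.4, 7.99 and 6.11. ZNF93, a repressor of L1 elements, had the counts given above. ZNF611, which binds SVA elements, had 2 body peaks in each of the first 3 libraries and none with the combination. ZNF382 had none with DMSO, 1 with OTS186935 (5.01), 1 with doxorubicin (3.6) and none with the combination. ZNF808, known for its part in pancreas development, had 2, 2, 1 and 0 body peaks with a highest fold of 6.88 with DMSO and 6.81 with OTS186935. ZNF208 had a peak at its 3′ end in 3 lists, of 4.82, 2.86 and 2.88, on 6, 3 and 3 fragments, and 3 was the least at any member's gene-end peak.

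The peaks in member bodies recurred about as often as peaks elsewhere. Of the 280 DMSO peaks, 139 (49.6%, 43.6 to 55.65) overlapped a peak with OTS186935, 98 (35%, 29.4 to 40.9) one with doxorubicin and 60 (21.4%, 16.8 to 26.7) one with the combination. The shares in other chromosome 19 genes were 50.9%, 38.2% and 21.7%, and over all peaks 44.45%, 35.1% and 23.6%. Seen from the treated lists, 54.4% of 252 OTS186935 peaks (48 to 60.6) and 53.85% of 182 doxorubicin peaks (46.3 to 61.25) overlapped a DMSO peak. Over all peaks the shares were 54.3% and 54.1%, next to those of the members. In the other chromosome 19 genes, which also have more DMSO peaks per Mb to meet, they were 64% and 68.1%. For the combination the share was 68.2% of 88 member peaks (57.4 to 77.7), against 67.75% in those genes and 59.3% over all peaks. Joined over the libraries, member bodies held 469 regions. There were 36 in all 4 lists (7.68%), 110 in DMSO only (23.5%) and 15 in the combination only (3.2%), against 7.36%, 23.6% and 6.07% of regions genome-wide.

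Further regions called in all 4 lists, named here after their values were seen, lay well inside genes. ZNF576 had 7.58, 7.58, 6.68 and 5.34 in its body. ZNF44 had 6.41, 5.63, 6.68 and 5.95, ZNF701 6.13, 5.11, 5.55 and 6.11, and ZNF100 7.24, 5.43, 6.66 and 5.87. A region shared by ZNF540 and ZNF571, at 0.43 of the length of ZNF540, had 6.86, 4 (5 fragments), 5.03 and 7.04. ZNF446, a SCAN zinc finger gene at the chromosome end, had 40, 36, 20 and 15 fragments at its summit, the most of any member peak with DMSO and with the combination, with folds of 4.8, 4.78, 3.81 and 4.21. Its pileup fell in the order of the lists while its fold moved little.

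At the other extreme, 32 members (12.8%) had no peak in the body or the end windows in any library, against 19.2% of all genes. The longest were ZNF577 (83.5 kb), ZNF431 (54 kb), ZNF112 (40.7 kb) and ZNF226 (34.4 kb), and ZNF85 and ZNF45 were also among them. Their median length was 20.04 kb, against 24 kb in the rest. A library this shallow can miss weak enrichment, so these genes had none that was detectable at this depth.

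The genes for the machinery that acts on and through the members were looked at as a list of 30, among them TRIM28, SETDB1, the HP1 genes, the SUV39H and KDM4 genes, ATRX and DNA methyltransferases. A gene-end peak was present at 11 of the 30 with DMSO, 4 with OTS186935, 3 under doxorubicin and 2 with the combination, against 38.7%, 28.7%, 21.9% and 14.8% of all genes. The list is short, and no difference from all genes was tested. EHMT2, which encodes the H3K9 methyltransferase G9a, had one in every list, with folds of 3.54, 2.98, 3.8 and 3.31. SUV39H2, the target of OTS186935, had none in any list, and 1, 1, 0 and 0 body peaks. TRIM28, which lies on chromosome 19 beyond the last ZNF cluster, had no peak at its ends or in its body in any library, and neither did SETDB2.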

How the data were processed

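Peak lists of 4 γH2AX libraries from SK-UT-1, 1 per condition and called separately, were used. Per the submitters' processing notes, hg38, MACS2 2.2.7.1, Bowtie2 2.4.2, bedtools 2.30.0 and Picard 2.25.3 were used. What each tool did, its options, read filters and whether an input was used: not given in the sources used here. The authors' deposited lists give, per summit, a fold enrichment (a ratio to local background), −log10 values of p and q, and a score. Fold and −log10 values are the authors' own, and the score was not used in any result.

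Rows that overlapped or touched were merged (highest values kept) and placed on the RefSeq gene table of GRCh38.p14, the same build. Strand came from the RefSeq promoter table. Pileup was computed back from each row's fold and p with the MACS2 definitions. Only whole numbers were tried, and the best one was kept for each row. It gave back the listed −log10 p with a largest difference of 0.000132 in any library. The depth of each library is not stated, and the floor of the background, 0.389 to 0.454 fragments, is the nearest measure of it. With 1 library per condition no test was made. Counting of overlaps, windows and positions was tested on simulated data. Python 3.11.15, numpy 2.4.6, pandas 2.3.3, scipy 1.17.1 and matplotlib 3.10.9 were used.

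The members and lists were chosen with earlier results of these data known. Named were members with a gene-end peak in all 4 libraries, the 5 of highest fold per library at gene ends and in bodies, the 5 of highest fold per comparison with −log10 q of at least 5 in one library and no peak in the other, the densest member of at least 5 kb per cluster, and members known from the literature; not every one is printed, and others are named to show which members had a peak. Protein sequences and exons were not used here, so the planned count of finger repeats was not made. Alternatives were a −log10 q of at least 5, lists of equal length, windows of 2.5 kb and a reciprocal overlap of 50%. Others were counting every row, the last 10% of the gene, and leaving out the 4 symbols with a hyphen, ZNF470-DT among them. A further 3, chosen after seeing the data, took every listed RefSeq start or left out ZNF536 or the cluster from ZNF264 to ZNF446.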

Additional observations from a re-analysis of the deposited data

Results flagged for a closer look

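Opposite changes under the same drug, without and with the other, occurred in a pair of summary values of the members. The share of members with a start-window peak changed by -7.76 percentage points from DMSO to OTS186935 and by +0.457 points from doxorubicin to the combination, a difference of 8.22 points. The second of these changes is 1 member, from 14 to 15, and in lists of equal length the 4 shares were 10.5%, 9.13%, 4.11% and 6.85%, so the changes still had opposite signs and lay closer together. The share of body summits in the last 20% of the gene's length changed by +1.51 points from DMSO to doxorubicin and by -4.27 points from OTS186935 to the combination, a difference of -5.78 points. With 1 library per condition neither difference was tested, and low counts limit the precision of both, the second resting on 41 summits with doxorubicin and 12 with the combination.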

How the results depend on the processing

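Values below are in the order DMSO, OTS186935, doxorubicin, combination, or, for kept peaks, the 3 treated libraries. Of 160 values recomputed, 104 stayed within their interval and 56 did not; none had a direction to reverse. A −log10 q of at least 5 gave gene-end shares of 10.4%, 6.8%, 2.4% and 0.8%, start shares of 8.68%, 4.57%, 0.457% and 0.913%, 3′ shares of 3.2%, 2.74%, 1.83% and 0%, densities of 9.43, 6.75, 2.67 and 0.704 per Mb, shares of summits in the last 20% of the gene of 30% with doxorubicin and 0% (of 5 summits) with the combination, kept gene ends of 42.3%, 11.5% and 7.69% and kept body peaks of 37.3%, 17.9% and 4.48%. At that limit 0 of 219 members had a 3′ peak with the combination, which allows up to 1.67%. Lists of equal length gave gene-end shares of 16%, 14.8% and 10.8%, start shares of 10.5% and 9.13%, a 3′ share of 7.31% with DMSO, densities of 16.5, 18.6 and 14.9 per Mb, so that DMSO no longer had the highest, and for the combination 50% kept gene ends and 31.6% kept body peaks. Windows of 2.5 kb gave gene-end shares of 50.8%, 41.2%, 27.2% and 21.6%, start shares of 36.5%, 26.9%, 13.7% and 12.8%, and 3′ shares of 25.6%, 21.9%, 16% and 11.4%. A reciprocal overlap of 50% left 41.4%, 27.1% and 14.3% of DMSO body peaks shared. The last 10% of the gene held 10.1%, 8.76%, 9.73% and 6.02% of summits, where an even spread gives 10%. Without the cluster from ZNF264 to ZNF446, density was 34.9 per Mb with DMSO and the start share 10.1% with OTS186935. No value left its interval when every row was counted, every listed RefSeq start was used, or ZNF536 or the symbols with a hyphen were left out. These are the effects of fewer peaks, wider windows or fewer genes by construction. No paired analysis was possible because each condition had 1 library. Depth limits all of this: member peaks rest on a median of 6 to 7 fragments.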
